A study of Schizosaccharomyces pombe with 29 samples.

Results

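Cytosolic ribosomal protein genes of the fission yeast Schizosaccharomyces pombe were followed across 8 RNA-seq libraries: 2 of rnh1∆rnh201∆ cells, 3 of pRnhA cells and 3 of WT cells. The genes were chosen by name, as every row of the deposited table that begins with rpl or rps and a digit, with 9 antisense rows left out. This gave 131 genes of 7016 rows, 76 of them for the large (rpl) and 55 for the small (rps) subunit. The rnh1∆rnh201∆ strain lacks both RNase H enzymes, which cut the RNA of RNA-DNA hybrids, and the pRnhA cells overexpress the Escherichia coli gene rnhA, which encodes such an enzyme. The labels give no promoter or clone for either strain and no mutation or treatment for WT. All cells were grown in PMG, a minimal medium, and moved to 34 °C for 3 hours before total RNA was taken with hot phenol. Reads of 50 bases were sequenced from 1 end after preparation with a directional kit. Nothing in the labels says that replicates came from separate cultures, and the p-values measure the spread between these libraries. Mating-type transcripts differed between libraries within each group, as given below, so this spread is not technical alone. Libraries of a group with the same mating type may still be technical replicates. The series holds 29 samples, and its other assays were not analysed here.

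The cytosolic ribosome joins a small subunit, which reads the messenger RNA, to a large subunit, which forms the peptide bond. Each subunit needs its proteins in equal numbers, and in fission yeast many of them are encoded by a pair of genes that yield nearly the same protein. These genes are among the most strongly transcribed by RNA polymerase II and are known to move together with growth, under control of the TOR kinase pathway. Their promoters are known for the HomolD box, which stands where other genes have a TATA box, and for the HomolE box found beside it in some of them.

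The promoters below show the box in genes described later: the 3 copies of rpl16 and the pairs of rpl30 and rps26, whose copies had unequal changes, and 4 short genes with the largest rises in pRnhA. The sequences are from RefSeq, assembly ASM294v3, on the gene's strand. Capitals mark the HomolD letters CAGTCACA, or TGTGACTG where the box runs the other way, or the nearest match with 1 mismatch.
rpl1601: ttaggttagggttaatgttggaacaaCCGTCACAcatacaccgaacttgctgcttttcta
rpl1602: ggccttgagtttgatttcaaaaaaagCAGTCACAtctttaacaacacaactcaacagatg
rpl1603: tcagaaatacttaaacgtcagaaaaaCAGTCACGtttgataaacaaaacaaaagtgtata
rpl3001: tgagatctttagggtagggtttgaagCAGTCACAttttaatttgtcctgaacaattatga
rpl3002: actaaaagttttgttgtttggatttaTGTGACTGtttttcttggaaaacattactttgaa
rps2601: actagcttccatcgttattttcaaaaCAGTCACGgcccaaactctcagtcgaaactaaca
rps2602: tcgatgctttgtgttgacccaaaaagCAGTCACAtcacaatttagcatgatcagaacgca
rpl29: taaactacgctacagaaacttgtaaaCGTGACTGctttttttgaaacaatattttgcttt
rps27: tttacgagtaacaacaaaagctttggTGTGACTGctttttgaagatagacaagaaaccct
rps29: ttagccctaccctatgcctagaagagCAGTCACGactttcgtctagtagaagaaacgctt
rps3001: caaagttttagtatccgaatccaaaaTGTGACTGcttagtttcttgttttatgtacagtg
The windows lie, on ASM294v3, at chrII:624066-624125 for rpl1601 (minus strand), chrI:4097251-4097310 for rpl1602 (plus), chrII:3443172-3443231 for rpl1603 (plus), chrI:1974098-1974157 for rpl3001 (minus) and chrI:5095901-5095960 for rpl3002 (minus). Those of the rps26 pair lie at chrI:236049-236108 for rps2601 and chrI:2793503-2793562 for rps2602, both on the minus strand. The other windows are on the plus strand, at chrII:3172230-3172289 for rpl29, chrII:517241-517300 for rps27, chrII:516356-516415 for rps29 and chrI:4890241-4890300 for rps3001. Counted from the first base of CAGTCACA in its own direction, the mismatch was A2C in rpl1601 and A8G in rpl1603, rps2601, rpl29 and rps29. The first base of the box or match lay 44 to 57 bases before the annotated gene start in these 11 promoters.

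Of the 131 genes, 130 were matched to the RefSeq annotation; rpl35b was not. In the window from 250 bases before to 50 bases after the gene start, CAGTCACA stood on either strand in 83 of 130 ribosomal protein genes (63.8%), against 54 of 5014 other protein-coding genes (1.08%) and 2.66% of all. The box was placed 40 to 80 bases before the start in 81 of these 83 genes, with a median of 51 bases. CAGTCACG, the variant with A8G, stood in a further 26 promoters (20%), against 33 of the other genes (0.658%). Any match with 1 mismatch and no exact box was found in 44 ribosomal protein genes (33.8%) and in 13.1% of the other genes. The HomolE core CCCTACCC stood on either strand in 47 (36.2%), against 0.678% of the others and 1.57% of all, and 27 promoters held both boxes. These matches are letters in a window and were not tested as sites.

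The matched genes lay on all 3 chromosomes, 58 on I, 47 on II and 25 on III. Their coding length ran from 78 bases (rpl4101 and rpl4102) to 1167 bases (rpl301 and rpl302), with a median of 450 bases. An intron split the coding sequence of 65 genes (50%), against 46.6% of other protein-coding genes. The names formed 74 families: 20 with 1 gene, 51 with a pair and 3 with 3 copies. One name stands apart by its annotation, as rpl701 is listed as an L7-like subunit of RNase MRP, a ribonucleoprotein that processes ribosomal RNA. It was kept as the naming rule has it.

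All values are counts that the authors normalised with DESeq2 and rounded to at most 2 significant digits, so rounding alone can move a value by up to 5%. The sequencing depth behind them is unknown, and no counting interval is given. The rows summed to between 8392168 and 9455805 per library. The deleted genes served as a check of the labels: rnh1 had 36 and 23 in the 2 rnh1∆rnh201∆ libraries, against 300 to 320 in pRnhA and 290 to 320 in WT, and rnh201 had 7 and 12, against 410 to 460 in pRnhA and 300 to 390 in WT. The level of rnhA itself was not analysed here. Mating type differed between libraries: mat1-Mc, a transcript of M cells, stood at 710 to 820 in rnh1∆rnh201∆ replicate 2, pRnhA replicates 1 and 2 and WT replicates 1 and 2, while mat2-Pc, of P cells, stood at 460 to 640 in the other 3. As these are bulk samples of cells, fewer cells of a kind and less RNA per cell cannot be told apart.

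Ribosomal protein mRNAs were abundant in every library. Per kilobase of coding length they had a median value of 6139, against 591 for other protein-coding features, and each of the 130 lay above the median of the others. They made up 31 of the 100 features highest on this scale and 65 of the top 200. The highest were rpl4102 (26442 per coding kilobase), whose product is a peptide of 25 residues, rpl6 (25935) and rps102 (24704), which encode proteins of the large and the small subunit. The place of rpl4102 depends on its short coding length: per kilobase of spliced length it had 8852, against 20425 for rps102, 19476 for rpl101, 17983 for rpl1802 and 17173 for rpl6. The lowest were rpl1603 (610), rpl3002 (1225) and rpl2801 (1334), each of them a minor copy whose partner stood higher. Summed over copies and scaled by spliced length, the mRNAs for 1 protein had a median of 8244 over 42 large subunit families and 8747 over 31 small subunit families. The spread between families was wide, from 1922 for rps27 to 27368 for the rps101 and rps102 pair.

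The 3 WT libraries differed among themselves more than those of either strain did. The genes took 5.88% and 5.88% of the summed values in the rnh1∆rnh201∆ libraries and 5.99%, 5.97% and 5.91% in the pRnhA libraries, against 5.84%, 4.95% and 4.47% in the WT libraries. Their mean share was 5.88% ± 0.0001 (SD, n = 2) in rnh1∆rnh201∆ and 5.96% ± 0.041 (SD, n = 3) in pRnhA, against 5.08% ± 0.70 (SD, n = 3) in WT. Every library of both strains lay above every WT library, WT replicate 1 was close to them, and WT replicates 2 and 3 were further down. The exact permutation test over libraries, two-sided, gave p = 0.2 for rnh1∆rnh201∆ against WT, p = 0.1 for pRnhA against WT and p = 0.2 for rnh1∆rnh201∆ against pRnhA, and 0.1 is the smallest p these group sizes allow.

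The same order held gene by gene. WT replicate 1 exceeded WT replicate 3 in 123 of the 131 genes, with 3 ties, against 53.9% of the 4401 other features with a mean of at least 200. The median log2 ratio of the 2 libraries was 0.44 over the ribosomal protein genes, 0.45 for the large and 0.43 for the small subunit, and 0.05 over those other features. Of all 8 libraries, WT replicate 1 was highest or tied for highest in 69 genes and WT replicate 3 lowest or tied for lowest in 116. The 5 genes lower in replicate 1 than in replicate 3 were rpl1603, rpl29, rpl39, rpl4101 and rps29, of which all but rpl1603 are short. The widest range within WT was that of rps1002, a small subunit gene, with 1600 and 1700 in rnh1∆rnh201∆ and 1700, 1400 and 1500 in pRnhA, against 2100, 1300 and 1100 in WT. Next came rps1201, also of the small subunit, with 1700 and 1800 in rnh1∆rnh201∆ and 1800, 1900 and 1800 in pRnhA, against 2200, 1500 and 1200 in WT. The large subunit gene rpl2701 had 470 and 810 in rnh1∆rnh201∆ and 440, 680 and 610 in pRnhA, against 690, 390 and 460 in WT. In all 3 genes the values of both strains lay within the WT range, except rnh1∆rnh201∆ replicate 2 for rpl2701.

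**Figure D1:**
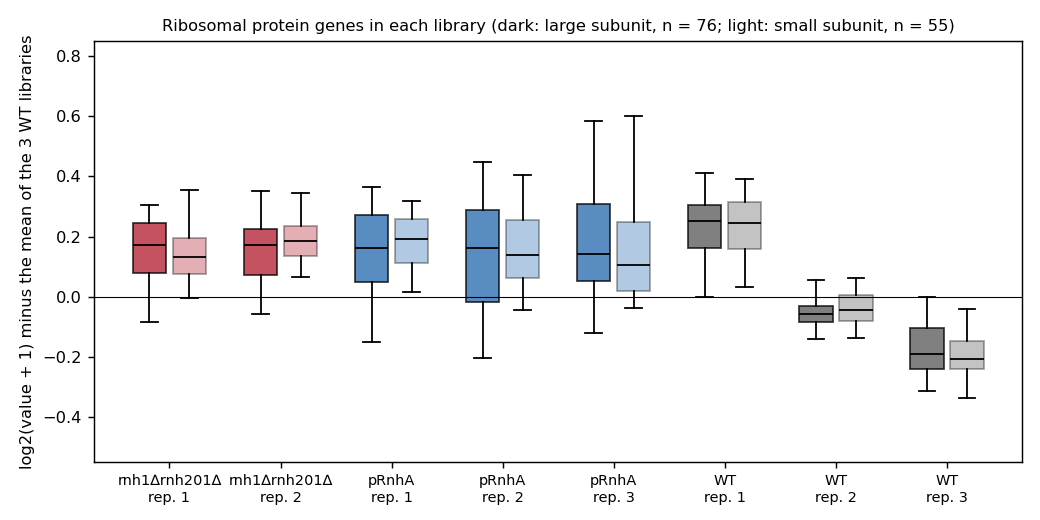
Log2(value + 1) of each ribosomal protein gene minus its mean over the 3 WT libraries, by library and subunit. Boxes span the quartiles with the median as a line and whiskers from the 5th to the 95th percentile of genes. The medians over all members were 0.15 and 0.18 in rnh1∆rnh201∆, 0.18, 0.16 and 0.14 in pRnhA, and 0.25, -0.06 and -0.19 in WT.

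Both subunits moved alike. In rnh1∆rnh201∆ the per-library median against the WT mean was 0.17 and 0.17 for the large and 0.13 and 0.18 for the small subunit. In pRnhA it was 0.16, 0.16 and 0.14 for the large and 0.19, 0.14 and 0.11 for the small subunit. In WT it was 0.25, -0.06 and -0.19 for the large and 0.24, -0.04 and -0.21 for the small subunit. In each library the gap between subunits was smaller than the distance between WT libraries.

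Genes that work beside the ribosomal proteins were taken as lists. The 12 ribosomal components whose names fall outside the rule, such as the stalk proteins and the ubiquitin fusions, summed to 58310 and 56890 in rnh1∆rnh201∆ and 56100, 53920 and 55480 in pRnhA, against 65190, 48750 and 43380 in WT. The 8 translation elongation factor genes summed to 307600 and 293700 in rnh1∆rnh201∆ and 289000, 289900 and 292500 in pRnhA. In WT they summed to 327800, 253500 and 230700. In both lists WT replicate 1 was the highest of the 8 libraries and WT replicate 3 the lowest. The 12 stress response genes summed to 24530 and 22280 in rnh1∆rnh201∆ and 21543, 20790 and 23030 in pRnhA. In WT they summed to 22826, 29047 and 26980, so that replicate 1 was the lowest of the WT libraries. Much of this gap was hsp9, with 2500, 5600 and 5500 in WT. From WT replicate 1 to 3, tps1 fell from 3300 to 2700, hsp16 from 490 to 220 and pyp2 from 270 to 210. Of the other genes of the list ntp1 was equal in these 2 libraries and the rest were higher in replicate 3. The part of the stress response genes in the level of the ribosomal protein genes was not tested.

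In rnh1∆rnh201∆ against WT, no ribosomal protein gene passed the threshold, an adjusted p under 0.05 in limma's fit across all features with Benjamini-Hochberg adjustment, and 0.294% of the 6456 features tested passed it, 0.0774% higher and 0.217% lower. At an unadjusted p under 0.05 there were 16 of the 131, 15 higher and 1 lower. Over the 6456 features there were 1374 (21.3%), 701 higher and 673 lower. The authors' deposited table calls 7, namely 6 higher, where it calls 6.94% of features higher, and 1 lower, where it calls 8.49% lower. The median log2 fold change of the 131 genes was 0.16, 0.17 for the large and 0.16 for the small subunit, and that of all features tested was 0.01. Both rnh1∆rnh201∆ libraries lay above all 3 WT libraries in 21 of the 131 genes and below them in 1. Over the 6456 features the counts were 968 (15%) and 895 (13.9%). Without WT replicate 1 the number past the threshold was 64, of which 63 were higher, while calls over all features were 19.6%, 10.5% higher and 9.04% lower, and the members' median was 0.29. Without WT replicate 3 no member passed, 0.53% of all features did and the members' median was 0.06.

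The largest fold changes in this comparison were those of 2 genes of chromosome III, and they came from 1 library. For rpl1702, which encodes a protein of the peptide exit tunnel, the values were 1400 and 4400 in rnh1∆rnh201∆ and 1400, 1400 and 1300 in pRnhA, against 1600, 1100 and 1000 in WT. For rpl1902, whose product bridges the subunits, they were 3500 and 11000 in rnh1∆rnh201∆ and 3400, 3600 and 3400 in pRnhA, against 3600, 3100 and 3000 in WT. In both genes rnh1∆rnh201∆ replicate 2 stood apart and replicate 1 lay within the WT range. The log2 fold changes against WT were 1.04 (SE 0.41, adjusted p = 0.19) and 0.94 (SE 0.38, adjusted p = 0.20) in limma's fit. Without that library they were 0.21 and 0.12, and without replicate 1 they were 1.86 and 1.77 and both passed the threshold, the lone library being assumed to vary like the other groups. The authors' deposited table gives adjusted p-values of 0.02 for rpl1702 and 0.01 for rpl1902.

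Both genes sat in an unbroken run of 47 genes that were higher in this library. Taking in chromosomal order the 4817 features with a mean of at least 100, of which 880 are on chromosome III, and asking for a log2 ratio of at least 1 to the median of the other 7 libraries, the run began at SPCC1682.06 and ended at cif1. Its median log2 ratio was 1.56, or 2.94-fold, with a range of 1.15 to 1.76. The median of the same genes was between -0.08 and 0.00 in each of the other 7 libraries. The gene before the run, cdc31, had a ratio of -0.08, and the one after it, wtf9, 0.90. The next longest run in any library had 6 genes, from urg2 to fur4 in WT replicate 3. Within the run rpl1902 was 3.24-fold and rpl1702 3.14-fold higher, beside psk1, the kinase that phosphorylates ribosomal protein S6, at 2.91-fold. The other 128 ribosomal protein genes compared had log2 ratios between -0.14 and 0.78 in this library, with a median of 0.06, and 23 of them are on chromosome III. This way of finding runs was chosen after the values were seen.

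**Figure D2:**
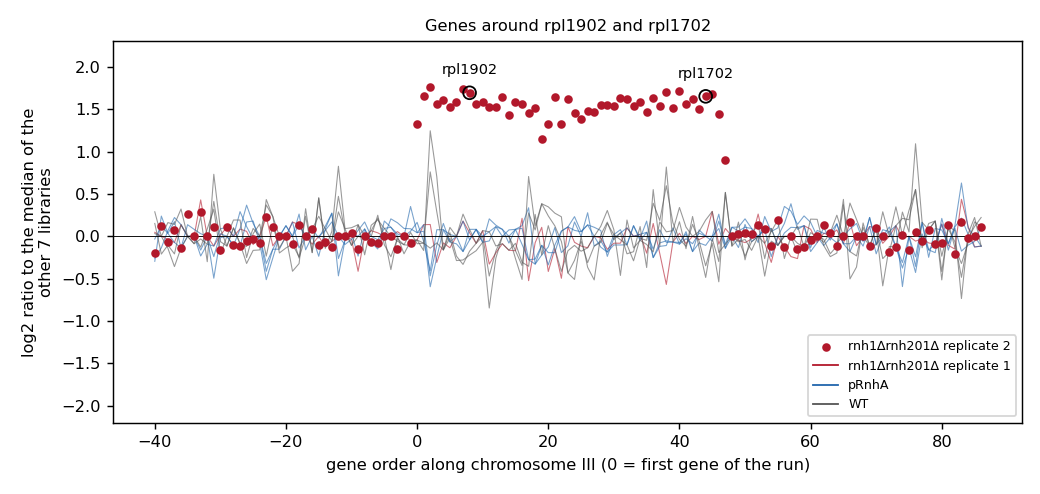
Log2 ratio of each gene to the median of the other 7 libraries, with genes in their order along chromosome III and 0 at the first gene of the run; red points are rnh1∆rnh201∆ replicate 2 and lines are the other libraries. The 47 genes of the run, with rpl1902 and rpl1702 circled, lie between 1.15 and 1.76 in replicate 2, while most genes on both sides lie near 0 and wtf9, the next gene after the run, is at 0.90.

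Other named values in rnh1∆rnh201∆ did not pass the threshold. The small subunit gene rps29 had 830 and 760 in rnh1∆rnh201∆ and 650, 910 and 880 in pRnhA, against 490, 640 and 600 in WT; its log2 fold change in rnh1∆rnh201∆ was 0.47 (SE 0.16, limma adjusted p = 0.15). The lowest fold change was that of rpl1603, at -0.45 (SE 0.18, limma adjusted p = 0.19), followed by rpl102 at -0.21 and rps2601 at -0.12. For rpl102, the minor copy of its pair, the values were 910 and 1000 in rnh1∆rnh201∆, against 1100 in each WT library.

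In pRnhA against WT, 24 ribosomal protein genes passed the threshold. There were 22 higher ones (16.8% of the 131, against 8.88% of all features) and 2 lower ones (1.53%, against 11.4%). In both directions together their share, 18.3%, was near the 20.2% of all features. The 22 comprised 13 large and 9 small subunit genes, their log2 fold changes ran from 0.27 to 0.63 and limma's adjusted p from 0.0066 to 0.049. The median over all 131 was 0.16, 0.17 for the large and 0.14 for the small subunit, and 0.00 over all features tested. At an unadjusted p under 0.05 there were 38 of the 131, 36 higher and 2 lower. Over the 6456 features there were 2300 (35.6%), 1064 higher and 1236 lower. All 3 pRnhA libraries lay above all 3 WT libraries in 24 of the 131 genes and below them in 2. Over the 6456 features the counts were 1010 (15.6%) and 1168 (18.1%). The authors' deposited table calls 37 higher, where it calls 14% of features higher, and 2 lower, where it calls 18.5% lower, and all 24 named by limma are among these 39, where the table calls 32.4% of features in either direction.

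The number of genes past the threshold moved with each library that was left out. It was 84 (64.1%) without WT replicate 1, of which 83 were higher, 4 (3.05%) without WT replicate 2 and 8 (6.11%) without WT replicate 3. Over all features these fits called 33.6%, 6.13% and 12.1%, so calls moved across the whole table. The members' median log2 fold change was 0.29, 0.13 and 0.05 in the same fits. Without pRnhA replicate 1 it was 13, without replicate 2 it was 2 and without replicate 3 it was 8, where 6.32%, 3.28% and 9.82% of all features passed. Without either rnh1∆rnh201∆ library, which share the fit, it was 15, or 11.5%, with 14.3% and 14.2% of all features. Within the libraries with mat1-Mc, which are 2 of pRnhA, 2 of WT and rnh1∆rnh201∆ replicate 2, no ribosomal protein gene and no other feature passed in pRnhA against WT by limma. At an unadjusted p under 0.05 there were 15 ribosomal protein genes there, 13 of them higher, and 1509 of 6439 features, and the median of the members was 0.06. All 24 kept their direction in each of these fits.

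**Figure D3:**
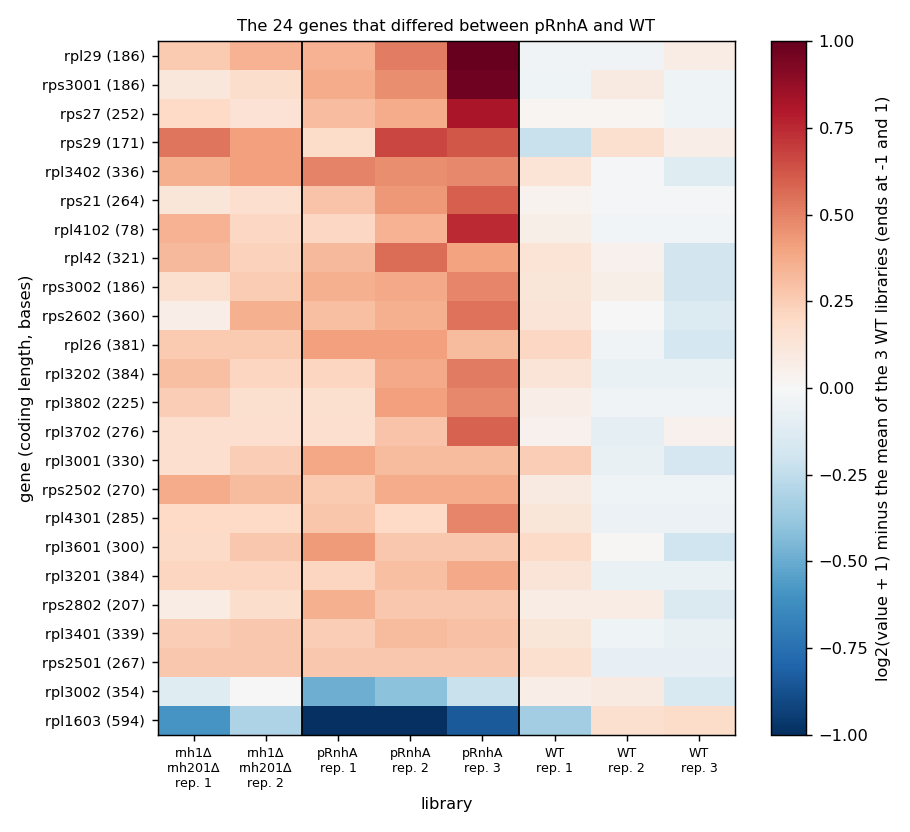
The 24 ribosomal protein genes that differed between pRnhA and WT, from the largest rise to the largest fall, with coding length in bases. Colour gives log2(value + 1) minus the mean of the 3 WT libraries, red for higher and blue for lower; in the top rows pRnhA replicate 3 is the darkest, with 1.0 for rpl29, and rpl1603 in the bottom row is blue in all 3 pRnhA libraries.

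The large subunit gene with the largest rise was rpl29. It had 1700, 1900 and 2700 in pRnhA and 1600 and 1700 in rnh1∆rnh201∆, against 1300, 1300 and 1400 in WT. No pRnhA library overlapped WT, and replicate 3 stood above the other two. Its log2 fold change was 0.63 (SE 0.15, limma adjusted p = 0.024) in pRnhA against WT and -0.32 (SE 0.17, adjusted p = 0.47) in rnh1∆rnh201∆ against pRnhA. Among large subunit genes rpl3402, the minor copy of rpl34, had the lowest adjusted p of those that rose. It had 860, 840 and 850 in pRnhA and 780 and 810 in rnh1∆rnh201∆, against 670, 600 and 560 in WT. Here the pRnhA libraries were close together and all apart from WT, and the log2 fold change was 0.48 (SE 0.07, limma adjusted p = 0.0066) in pRnhA against WT and -0.10 (SE 0.08, adjusted p = 0.67) in rnh1∆rnh201∆ against pRnhA. The main copy rpl3401 rose too, with 6000, 6300 and 6200 in pRnhA against 5500, 4900 and 4800 in WT (log2 fold change 0.29, limma adjusted p = 0.025).

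Among small subunit genes rps3001 rose most. It had 790, 840 and 1200 in pRnhA and 660 and 690 in rnh1∆rnh201∆, against 590, 650 and 590 in WT. For rps27 the values were 840, 880 and 1200 in pRnhA and 780 and 750 in rnh1∆rnh201∆, against 690, 690 and 660 in WT. In both genes pRnhA replicate 3 was the highest of the 8 libraries and no pRnhA library overlapped WT. Their log2 fold changes in pRnhA against WT were 0.60 (SE 0.14, limma adjusted p = 0.024) and 0.50 (SE 0.12, adjusted p = 0.027), and in rnh1∆rnh201∆ against pRnhA they were -0.46 (SE 0.16, adjusted p = 0.29) and -0.33 (SE 0.14, adjusted p = 0.38). The gene next to rps27 on the chromosome is rps29, which encodes a zinc-binding protein and rose by 0.49 (SE 0.14, limma adjusted p = 0.047) in pRnhA, and its difference in rnh1∆rnh201∆ against pRnhA was -0.02. The other rises were smaller: rps21 (0.44), rpl4102 (0.43), rpl42 (0.43), rps3002 (0.41) and rps2602 (0.40) followed, and the remaining 12 lay between 0.27 and 0.38. Of pairs, both copies rose for rpl32, rpl34, rps25 and rps30.

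The gene with the largest fall was rpl1603, the least abundant of 3 rpl16 copies. It had 230, 220 and 270 in pRnhA and 320 and 390 in rnh1∆rnh201∆, against 380, 540 and 550 in WT. All pRnhA libraries lay below WT and below rnh1∆rnh201∆, whose replicate 2 overlapped the lowest WT library. The log2 fold change was -1.01 (SE 0.16, limma adjusted p = 0.0075) in pRnhA against WT and 0.56 (SE 0.18, adjusted p = 0.26) in rnh1∆rnh201∆ against pRnhA. As a share of the 3 copies it took 3.37%, 3.23% and 3.77% in pRnhA and 4.26% and 4.76% in rnh1∆rnh201∆, against 4.05%, 7.56% and 8.03% in WT, so that WT replicate 1 lay below both rnh1∆rnh201∆ libraries. The protein has 197 residues, as the others do, and is 86.3% identical to that of rpl1602, while those of rpl1601 and rpl1602 are 96.4% identical. No stretch of 50 bases is shared between the copies' mRNAs. The annotated mRNA of rpl1603 has 2640 spliced bases, against 687 for rpl1601 and 743 for rpl1602, with a coding length of 594 bases in each. How much of the value of rpl1603 came from outside its coding sequence was not tested. Its span overlaps apl1 on the opposite strand, which had 1000, 1000 and 1100 in pRnhA against 990, 1100 and 1100 in WT. The other gene that fell, rpl3002, is described with its pair, and the next lowest, rpl302, encoding one of the longest proteins, had a log2 fold change of -0.18 that did not pass (adjusted p = 0.38).

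The rise in pRnhA was larger in short genes. The median log2 fold change in pRnhA against WT was 0.35 over the 21 genes with a coding length of up to 300 bases, 0.18 over 75 genes above that and up to 600 bases, 0.07 over 30 genes of up to 900 and -0.15 over 4 longer ones. In rnh1∆rnh201∆ against WT the medians were 0.20, 0.19, 0.13 and -0.02. Of the 22 genes that rose in pRnhA 14 were in the shortest class, and the longest of the 22 had 384 bases. Spearman's rho of fold change with coding length across the 130 genes was -0.62 in pRnhA and -0.36 in rnh1∆rnh201∆, given as a description since genes share libraries. The other features with a mean of at least 200 had the same order at a smaller size in pRnhA: 0.15 over 95 features of up to 300 bases, 0.06, 0.04 and -0.03 over 2988 longer than 900.

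Among the ribosomal protein genes, the contrast of short and long genes within single libraries varied widely between replicates of pRnhA and of WT. The median deviation of members of up to 300 bases minus that of the 34 members over 600 bases was 0.09 and 0.06 in rnh1∆rnh201∆ and 0.16, 0.29 and 0.45 in pRnhA, against -0.22, 0.04 and 0.18 in WT. The pRnhA and WT libraries overlapped, and the exact permutation test gave p = 0.2, two-sided. The same contrast over other features was 0.07 and 0.07 in rnh1∆rnh201∆ and 0.15, 0.19 and 0.17 in pRnhA, against -0.01, 0.02 and 0.02 in WT, without overlap between groups (exact p = 0.1 for each pair of groups, the smallest possible). With each library's trend along coding length removed, a correction chosen after seeing the data, the number past the threshold in pRnhA was 9, 7 higher and 2 lower, with rpl3402 at 0.36, rpl3002 at -0.49 and rpl1603 at -1.08 among them, and the median of all members was 0.09. This is 6.92% of the members with a coding length, against 18.3% of the members without the correction. In that fit 1163 of the 5089 features with a coding length passed (22.85%), 530 higher and 633 lower. Without the correction 1306 of 6456 features passed (20.2%).

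**Figure D4:**
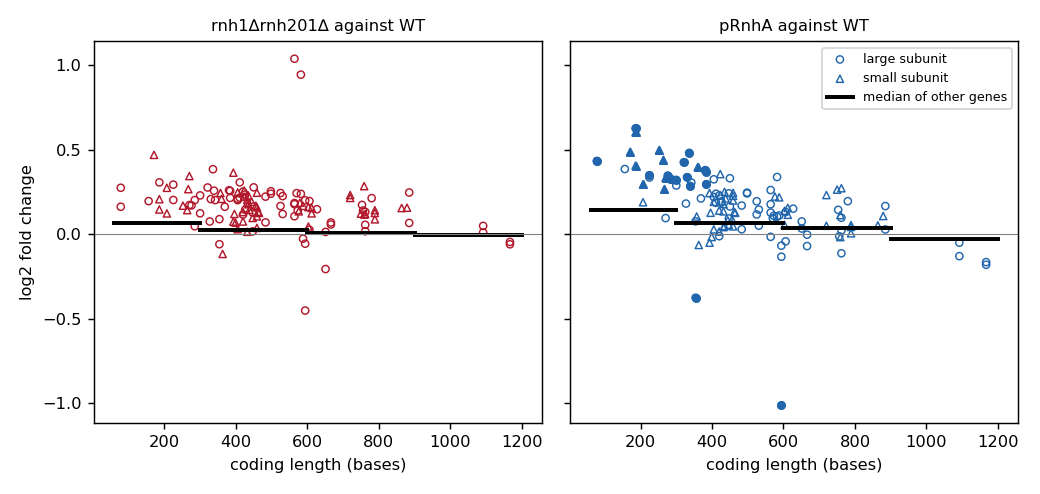
Log2 fold change against WT of the 130 matched ribosomal protein genes over coding length in bases, for rnh1∆rnh201∆ on the left and pRnhA on the right; filled symbols passed limma's threshold and black bars are medians of other features by length class. Rises in pRnhA cluster below 400 bases, and the 2 points near 1.0 on the left are rpl1702 and rpl1902.

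The direct comparison of the strains, rnh1∆rnh201∆ against pRnhA, had no ribosomal protein gene past the threshold, where 0.356% of all features passed, 0.232% higher and 0.124% lower. At an unadjusted p under 0.05 there were 7 of the 131, 2 higher and 5 lower. Over the 6456 features there were 810 (12.5%), 486 higher and 324 lower. The median was 0.00 for the 131 genes and 0.01 for all features. Of the 131 genes, the strains' libraries did not overlap in 18 higher and 14 lower ones. Over the 6456 features tested the counts were 1155 (17.9%) and 908 (14.1%), so both shares were lower among the members.

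Shifts in the balance of paired copies were small in most families. For the 51 pairs the log2 ratio of the copies was taken within each library, so that scaling drops out. The median absolute difference from WT was 0.09 in rnh1∆rnh201∆ and 0.12 in pRnhA, and it was over 0.3 in 3 and 2 pairs. The ratios did not overlap in 17 pairs (33.3%) for rnh1∆rnh201∆ and 13 (25.5%) for pRnhA against WT. For single levels over all features the libraries did not overlap in 15% higher and 13.9% lower for rnh1∆rnh201∆, and in 15.6% and 18.1% for pRnhA. With 3 libraries or fewer a group, the exact permutation test cannot give less than p = 0.1.

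The pair with the largest shift in pRnhA was rpl30, whose product in budding yeast is known to control the splicing of its own transcript. The log2 ratio of rpl3001 to rpl3002 was 2.69, 2.54 and 2.35 in pRnhA and 2.1 in both rnh1∆rnh201∆ libraries, against 2.00, 1.65 and 1.80 in WT. All libraries of both strains lay above WT, and pRnhA above rnh1∆rnh201∆. The mean was 2.53 ± 0.17 in pRnhA (SD, n = 3) against 1.82 ± 0.18 in WT (SD, n = 3), a difference of 0.71 (exact permutation p = 0.1, two-sided), and the difference for rnh1∆rnh201∆ was 0.27 (exact p = 0.2 there). Both copies moved: rpl3001 had 2200, 2100 and 2100 in pRnhA and 1900 and 2000 in rnh1∆rnh201∆, against 2000, 1600 and 1500 in WT, and rpl3002 had 340, 360 and 410 in pRnhA and 440 and 480 in rnh1∆rnh201∆, against 500, 510 and 430 in WT. In pRnhA rpl3001 rose (log2 fold change 0.34, SE 0.10, limma adjusted p = 0.047) and rpl3002 fell (-0.37, SE 0.10, adjusted p = 0.033; with the replicate number as a block, adjusted p = 0.054). Of the named pairs this one had the least alike proteins, 79.5% identical with 109 and 117 residues, and both promoters shown above hold the box, in opposite directions.

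The rps26 pair shifted toward rps2602. The log2 ratio of rps2601 to rps2602 was 0.33, 0.00 and -0.09 in pRnhA and 0.28 and 0.15 in rnh1∆rnh201∆, against 0.54, 0.45 and 0.63 in WT. All libraries of both strains lay below WT; the differences were -0.46 in pRnhA and -0.33 in rnh1∆rnh201∆ (exact permutation p = 0.1 each, two-sided). In pRnhA rps2602, with 2700, 2800 and 3200 against 2400, 2200 and 2000 in WT, rose by 0.40 (SE 0.10, limma adjusted p = 0.031; with the replicate block, adjusted p = 0.051), and rps2601, with 3400, 2800 and 3000 against 3500, 3000 and 3100 in WT, had -0.06 (adjusted p = 0.67). An opposite-strand gene, SPAC1805.10, overlaps rps2602 and had 730, 750 and 790 in pRnhA against 890, 850 and 960 in WT (log2 fold change -0.25, limma adjusted p = 0.030), and the part of one in the other's values was not tested. Of the promoters shown above, that of rps2602 holds the exact box and that of rps2601 the A8G form, and their levels were 7083 and 8506 per coding kilobase.

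Other shifts were smaller. For rps22 the ratio of rps2201 to rps2202 was 2.74, 2.89 and 2.69 in pRnhA and 2.88 and 2.67 in rnh1∆rnh201∆, against 2.73, 2.35 and 2.37 in WT, and WT replicate 1 overlapped both strains. For rpl18 the ratio of rpl1801 to rpl1802 was -1.63, -1.60 and -1.55 in pRnhA and -1.32 in both rnh1∆rnh201∆ libraries, against -1.29, -1.29 and -1.37 in WT, so that pRnhA stood apart by -0.28 (exact permutation p = 0.1). For rpl37 the ratio of rpl3702 to rpl3703 was -0.81, -0.69 and -0.46 in pRnhA, against -1.0, -0.93 and -0.79 in WT, with an overlap. The pairs with the largest shifts in rnh1∆rnh201∆ were those of the chromosome III run. The ratio of rpl1701 to rpl1702 was 0.58 and -0.94 in rnh1∆rnh201∆, against 0.64, 0.86 and 0.76 in WT, and that of rpl1901 to rpl1902 was 0.43 and -1.29, against 0.38, 0.26 and 0.18 in WT. Their partners on chromosome II showed no such split, with 2100 and 2300 for rpl1701 and 4700 and 4500 for rpl1901 in rnh1∆rnh201∆. Without rnh1∆rnh201∆ replicate 2 the 2 differences from WT were -0.17 and 0.15, against -0.93 and -0.71 with it.

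**Figure D5:**
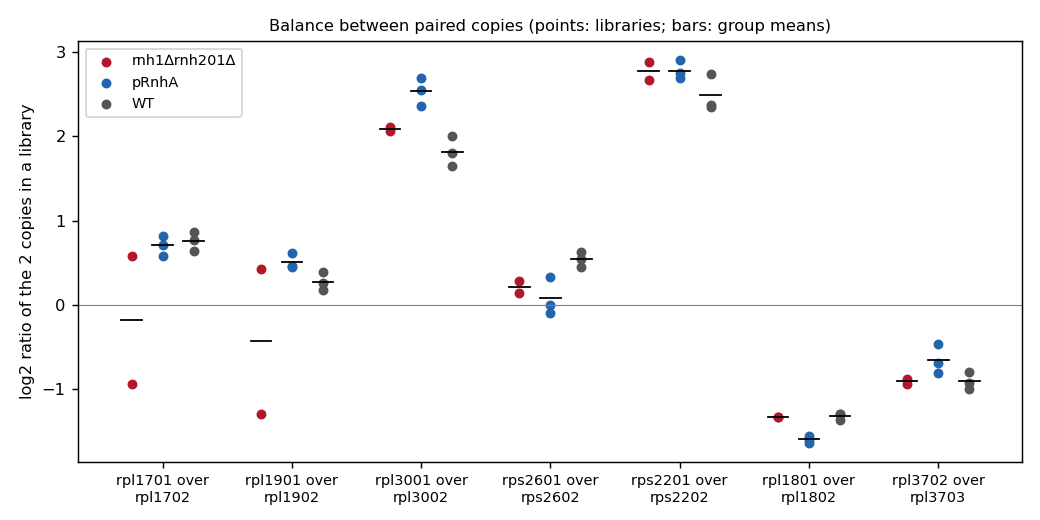
Log2 ratio of the copies of 7 pairs in each library, with points for libraries and bars for group means; in each pair rnh1∆rnh201∆ is on the left, then pRnhA, then WT. The rpl30 ratio is 2.35 to 2.69 in pRnhA against 1.65 to 2.00 in WT, and rnh1∆rnh201∆ replicate 2 lies far below replicate 1 in the rpl17 and rpl19 pairs.

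The copies of a pair were often unequal in level. Per kilobase of coding length the higher copy exceeded the lower by a median of 1.79-fold over 50 pairs, by over 2-fold in 21 and over 4-fold in 7. The widest gap was 14.2-fold for rpl101 over rpl102, at 23426 and 1653 per coding kilobase, followed by 7.60-fold for rpl3401 over rpl3402 and 6.41-fold for rps2201 over rps2202. Where only 1 copy of a pair held the exact HomolD box, in 29 pairs, that copy was the higher one in 11. Over single genes the median was 6294 per coding kilobase with the exact box (n = 83) and 5667 without it (n = 47). The median change in pRnhA was 0.17 with and 0.15 without the exact box. Sequence shared between copies limits some of these values: over 10% of the 50-base stretches of the mRNA are shared within large subunit pairs such as rpl301 and rpl302, rpl1001 and rpl1002, and rpl1201 and rpl1202, whose division of reads is uncertain. None of the genes past the threshold shares over 10% of its stretches with another copy.

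Of these lists, the 12 further ribosomal components had 2 members (16.7%, against 8.88% of all features) higher in pRnhA, the stalk protein genes rpp102 (log2 fold change 0.30, limma adjusted p = 0.015) and rpp203 (0.39, adjusted p = 0.034), and none in rnh1∆rnh201∆, with medians of 0.14 in pRnhA and 0.18 in rnh1∆rnh201∆. None of the 8 elongation factor genes passed in either strain, with medians of 0.13 in pRnhA and 0.20 in rnh1∆rnh201∆; the copies tef101, tef102 and tef103 are near-identical and their reads may be shared. Of 13 genes of the TOR pathway and of ribosomal gene regulators, 1 (7.7%, against 11.4% of all features) was lower in pRnhA, the kinase gene tor2, with 3800, 3500 and 3700 in pRnhA against 4300, 4200 and 4200 in WT (log2 fold change -0.21, SE 0.05, limma adjusted p = 0.031), and none passed in rnh1∆rnh201∆, with medians of -0.03 in pRnhA and -0.02 in rnh1∆rnh201∆. Neither of the 2 mating-type transcripts passed in either strain. Of 12 stress response genes 5 (41.7%, against 11.4% of all features) were lower in pRnhA and none passed as higher, where 8.88% of all features did. The 5 were atf1 (-0.49), which encodes a stress transcription factor, the trehalase gene ntp1 (-0.47), gpx1 (-0.40), tps1 (-0.37) and gpd1 (-0.26), and none passed in rnh1∆rnh201∆. The largest fold changes of the list had the other sign and did not pass: those of ctt1, the catalase gene, were 1.5 in rnh1∆rnh201∆ and 1.18 in pRnhA (limma adjusted p = 0.17 and 0.13), and those of the heat shock gene hsp16 were 1.32 and 0.64 (adjusted p = 0.091 and 0.17). The medians of the stress list were -0.31 in pRnhA and -0.11 in rnh1∆rnh201∆, beside 0.00 and 0.01 over all features tested.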

How the data were processed

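RNA-seq of 8 libraries was analysed. The deposited table holds, per the file headers, DESeq2-normalised counts, used here as a score because every value is rounded to at most 2 significant digits, together with their log2 fold changes and adjusted p-values with 2 decimals. The submitters' processing notes name TopHat2 2.0.5, DESeq2, and the builds hg19 and ASM294v2; the counting tool and its use of strand are not given in the sources used here. The authors' deposited log2 fold changes carry no named reference; over the 131 genes they correlated at 0.976 and 0.995 with the ratio to WT for rnh1∆rnh201∆ and pRnhA.

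From the deposited score, limma-trend (limma 3.58.1, R 4.3.3) was fitted to log2(value + 1) over 6456 features with a mean of at least 1, all 8 libraries and 3 groups in 1 fit with 5 residual degrees of freedom, Benjamini-Hochberg adjustment over all features in each of 3 comparisons and a threshold of 0.05. Fold changes are on this scale, which understates those of low genes. The fit was checked on simulated data in which features varied independently, so the check does not cover shifts shared by many genes of a library. Single values per library were tested by exact permutation over libraries. The members and gene lists were chosen with earlier results of these data known. Genes named are the 5 largest rises and falls past the threshold against WT (up to 3 as values where fewer passed), the 5 pairs with the largest shift of ratio, the 3 highest and lowest per coding length and the 3 of widest WT range; others were chosen after their values were seen. Of 7016 rows 6232 matched the RefSeq gene table of ASM294v3, which gave lengths, order and promoters; of the matched members 93 overlap a gene on the opposite strand and 7 one on the same strand. Among same-numbered libraries of pRnhA and WT the deviations from the group means correlated at 0.34, 0.35 and 0.60. By the rule of every such pair over 0.1 the numbers were taken as pairing these 2 groups, on the data alone. The numbers entered only the fit with the replicate block, where they covered all 3 groups, so that the rnh1∆rnh201∆ libraries were blocked too. The main fit and the permutation tests did not use them. Differently numbered replicates 1 and 2 correlated as highly (0.32 and 0.37), and only replicate 3, with mat2-Pc in both groups, stood apart; rnh1∆rnh201∆ replicate 1 correlated at -0.17 with WT replicate 1.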

Additional observations from a re-analysis of the deposited data

How the results depend on the processing

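Every alternative left the 131 genes' median log2 fold change within the spread between libraries of its main value, and none turned a called gene round. That spread is wide, as the WT library medians ran from -0.19 to 0.25. Without WT replicate 3 the median was 0.06 in rnh1∆rnh201∆ and 0.05 in pRnhA against WT, and without WT replicate 1 it was 0.29 in both. Counts moved. In pRnhA against WT the 24 genes past the threshold became 49 with equal library totals (48 higher). With equal totals over other genes they became 51 (50 higher), and in libraries with mat1-Mc 0. They became 15 with only the 2 groups compared, 7 without limma's trend and 9 with the coding-length trend removed. Of the features tested these fits called 917 (14.2%), 858 (13.3%) and 1163 of 5089 (22.85%), against 1306 of 6456 (20.2%). The coding-length fit was added after seeing the data and took only features with a coding length. Equal totals moved the median of all features by 0.11 and the share of higher calls from 43.9% to 77.1% of 1634 features (79.1% of 1762 over other genes, a shift of 0.13); the members' median was then 0.27. In rnh1∆rnh201∆ against WT the count of 0 became 4 under both equal-total scalings, where calls over all features went from 19 to 213 and 241, 79.3% and 80.9% of them higher. With the replicate number as a block over all 3 groups, the members' median in rnh1∆rnh201∆ against WT was 0.11, against 0.16 in the main fit. The counts were then 0, 22 and 0 for rnh1∆rnh201∆ against WT, pRnhA against WT and rnh1∆rnh201∆ against pRnhA. The block changed no other call among the named genes than rps2602 and rpl3002. Leaving out 1 library gave counts of 0 to 64, 2 to 84 and 0 to 2 in the same order. Pairs whose ratios do not overlap numbered 20 to 29 for rnh1∆rnh201∆ and 16 to 21 for pRnhA against WT when 1 library was left out, where fewer libraries make overlap rarer. Without the 10 highest other rows the share of summed values was 6.43% in rnh1∆rnh201∆, 6.56% in pRnhA and 5.58% in WT. Among values of the genes named by rule, over all settings, 87 no longer passed the threshold and 31 newly passed it. Members outside that rule are not in these counts. Of the 24 genes called in pRnhA against WT, 4 still passed without WT replicate 2 and 2 without pRnhA replicate 2, while 22 did without WT replicate 1. Depth is unknown, rounding limits values to steps of up to 5%, and 3, 3 and 2 libraries limit every test; the cause of these moves was not tested.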
